A study of Bos taurus with 6 samples.

Results

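Ubiquitin-specific peptidases (USP) are the largest family of deubiquitinases, the enzymes that remove ubiquitin from other proteins. The family was described here across bovine blastocysts from oocytes matured with or without melatonin (MT). Its members were the rows of the deposited table whose gene name is USP followed by a digit, which gave 48 genes of 36075. Of these, 47 were annotated as ubiquitin-specific peptidases, and USP6NL, which encodes a GTPase-activating protein for RAB proteins, met the rule by its name alone. Control embryos came from oocytes kept in maturation medium without MT for 22 h, and MT-treated embryos came from oocytes given 1e-07 mol/L MT over the same 22 h. Both groups otherwise shared the same route as described in the study's methods, with oocytes from slaughterhouse ovaries of cattle, in vitro fertilization and culture to the blastocyst stage. Each group held 3 libraries, and each library was made from a pool of 3 blastocysts, so no value belongs to a single embryo. RNA abundance was given as TPM, a unit that relates the reads of a gene to its length and to the total of the library. Values of single libraries are given in the order of replicates 1, 2 and 3, without MT for control and with MT for MT-treated libraries.

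A USP enzyme cuts the bond between ubiquitin and a substrate, or between the ubiquitin units of a chain, and thereby spares the substrate from the proteasome or ends a ubiquitin signal. Ubiquitin is attached by the successive action of E1, E2 and E3 enzymes, and deubiquitinases reverse this step. USP enzymes act at the proteasome, on histones, in DNA repair, at endosomes and mitochondria, and on WNT and TGF-beta signalling components. In mammalian embryos ubiquitin-dependent turnover is known for the removal of maternal proteins, and histone ubiquitin marks are rewritten as the embryonic genome becomes active.

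The libraries of the 2 groups differed across the whole table, and this touched each result on the family. The number of genes above 0 lay between 8854 and 8953 in the control libraries and between 14372 and 14408 in the MT-treated libraries. Blastocyst markers were not all present in the controls. CDX2, a trophectoderm factor, and NANOG, an inner cell mass factor, were listed at 0 in each control library, whereas libraries with MT held 17.2, 15.0 and 16.1 TPM of CDX2 and 8.93, 8.23 and 8.88 TPM of NANOG. Other markers of the same lists were lower with MT, with TFAP2A of the trophectoderm at 31.5, 38.9 and 37.8 TPM without MT and at 0.46, 0.46 and 0.55 TPM with MT, and SALL4 of the inner cell mass at 55.0, 57.5 and 57.9 TPM and 26.4, 26.3 and 27.0 TPM. Of 5 inner cell mass, 9 trophectoderm and 5 hypoblast markers, 3, 8 and 1 reached 1 TPM in all control libraries and 5, 8 and 3 in all MT-treated libraries. The summed TPM of the inner cell mass markers was 262 to 267 in control and 316 to 321 in MT-treated libraries, that of the trophectoderm markers 11493 to 11832 and 10663 to 11014, and that of the hypoblast markers 204 to 208 and 514 to 517. Of the 9 trophectoderm markers 7 had higher means with MT, and the lower sum came mostly from KRT8, at 8717, 8541 and 8828 TPM without MT and 6950.0, 6756 and 7009.6 TPM with MT. Of 9 cumulus and granulosa cell markers in the table, 4 were above 0 in some library, with sums of 17.2 to 19.3 TPM in control and 15.1 to 17.1 TPM in MT-treated libraries that came nearly all from FSHR. Of 7 oocyte markers 6 were listed at 0 throughout, and BMP15 was at 0.52, 0.89 and 0.58 TPM with MT and 0 without. Of 5 sperm and testis markers, TNP1 alone was above 0, with 65.0, 59.6 and 61.4 TPM without MT and 0 with MT. The part of these differences in the values of the USP genes was not tested. A value of 0 is given here only as listed, and in pooled embryos fewer cells that express a gene cannot be told apart from less RNA per cell.

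As deposited, the USP family was detected more widely but at a lower sum in MT-treated blastocysts. The direction of the sum depended on the scaling. Of the 47 peptidases, 26, 27 and 27 were above 0 without MT and 38, 38 and 39 with MT. Their summed abundance was 946, 965 and 948 TPM without MT and 820.5, 812 and 813 TPM with MT. The sums of the groups did not overlap, with means of 953 ± 10.7 TPM in control and 815 ± 4.67 TPM in MT-treated blastocysts (SD, n = 3 each). The log2 ratio of the means was -0.22, but it became 0.27 when each library was centred on the median of the genes with at least 1 TPM in all libraries, and 0.054 when centred on the median ratio of those genes. USP peptidases made up 0.102% of the listed TPM in control and 0.0893% in MT-treated blastocysts.

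A gene was tested when it had at least 1 TPM in at least 3 libraries, which 37 of the 48 USP genes and 11953 genes in all reached. Of the 37 USP genes, 21 had at least 1 TPM in all 6 libraries, 12 were under 1 TPM in all control libraries and 3 were under 1 TPM in all MT-treated libraries. The last 2 sets passed through the group in which they were high and had to differ. The remaining gene, USP4, had 1 TPM or more in 2 control libraries and likewise needed the MT-treated libraries to pass, so these 16 genes are described by their values with no p. At an adjusted p-value under 0.05 (limma on log2(TPM + 1), Benjamini-Hochberg adjustment over all tested genes), 22 USP genes rose with MT, 14 fell and 1, USP33, did not pass. Among all tested genes 95.7% were called, 61.6% higher and 34.1% lower, so the 59.5% higher and 37.8% lower among USP genes were near the background. Among the called genes that also differed at least 2-fold in TPM + 1, 20 USP genes were higher and 9 lower, where the background was 51.0% and 19.6%. The groups did not overlap for 36 of the 37 USP genes and for 96.1% of all tested genes. The median log2 fold change was 1.29 over the 37 USP genes and 1.12 over all tested genes. Over the genes above 0 in all 6 libraries it was -0.36 for 25 USP genes and -0.19 for 6925 genes. With quantile normalization, which gives each library the same distribution, 15 of the 37 USP genes were higher and 20 lower, where 46.4% of all tested genes were higher and 44.4% lower.

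**Figure D1:**
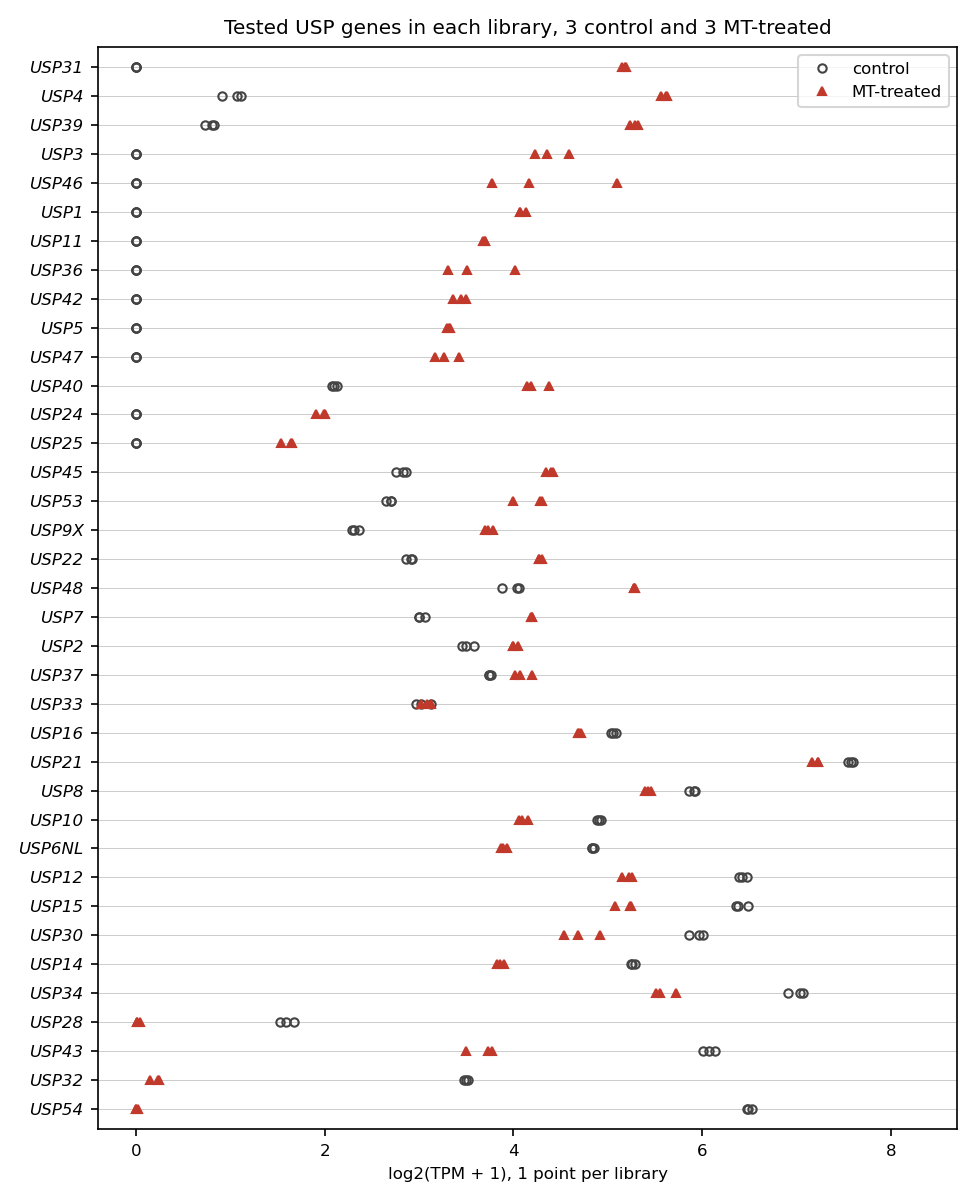
Abundance of the 37 tested USP genes in each library, as log2(TPM + 1) on the horizontal axis, with 1 open circle per control library and 1 triangle per MT-treated library, ordered by fold change. The 11 genes with all control circles at 0 lie in the upper part of the plot, USP33 is the gene whose groups overlap, and USP54 has its MT-treated points at or near 0.

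Of the tested USP genes, 11 were listed at 0 in each control library (33.8% of all tested genes were), and 0 were listed at 0 in each MT-treated library (3.01% of all tested genes were). In the MT-treated group the mean TPM of these 11 genes ran from 2.06 to 35.1 with a median of 11.5, beside a median of 10.2 for all 4037 genes at 0 in each control library. Together they made up 17.1% to 19.3% of the family's summed TPM in the MT-treated libraries. Of the peptidases above 0 in all libraries, 11 were higher, with a median ratio of mean TPM of 3.09, and 12 were lower, with a median ratio of control to MT-treated of 2.38. Of the 24 tested peptidases above 0 in all libraries these were counts near the background, since 40.6% of the 6925 tested genes above 0 in all 6 libraries were called higher and 52.3% lower.

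Among the enzymes of the proteasome and of free ubiquitin chains, USP14 fell and USP5 rose. USP14, which is bound to the proteasome and trims chains from its substrates, stood at 38.0, 37.1 and 37.3 TPM without MT and at 13.9, 13.1 and 13.5 TPM with MT. Each MT-treated value was below each control value, with a ratio of control to MT-treated means of 2.77 and a log2 fold change, with its standard error, of -1.40 ± 0.03 (adjusted p = 3.11e-08, limma). USP5, which takes apart unanchored ubiquitin chains, was listed at 0 in each control library and reached 8.80, 8.97 and 9.03 TPM with MT. USP13, its closest relative, was listed at 0 in all 6 libraries.

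The enzymes that act on histone ubiquitin held the most abundant member of the family. USP21, a histone H2A deubiquitinase, stood at 186, 193 and 189.8 TPM without MT and at 149, 149 and 143 TPM with MT. It ranked highest of the peptidases in both groups, and its values fell by 0.37 ± 0.03 on the log2 scale (adjusted p = 1.25e-05, limma), a direction that turned to 0.11 under median centring. USP16, which removes ubiquitin from histone H2A in mitosis, had 33.1, 32.3 and 31.7 TPM without MT and 24.6, 25.2 and 24.9 TPM with MT, and its log2 fold change of -0.36 ± 0.03 likewise became 0.12 under median centring. Neither change was thus kept under that scaling, whereas centring on the median ratio of shared genes left them at -0.10 and -0.09.

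Other histone-directed members rose. USP22, the deubiquitinase of the SAGA coactivator complex, stood at 6.28, 6.62 and 6.57 TPM without MT and at 18.3, 18.4 and 18.7 TPM with MT, a ratio of MT-treated to control means of 2.84 (adjusted p = 5.08e-08, limma). USP3, which acts on histones H2A and H2B, was listed at 0 in each control library and reached 23.0, 19.5 and 17.8 TPM with MT. The nucleolar USP36 had 8.93, 15.2 and 10.4 TPM and USP42, its relative, 10.3, 9.24 and 9.88 TPM with MT, and both were listed at 0 in each control library. The MT-treated values of USP36 spread more than those of USP42, and after quantile normalization USP36 was no longer called (log2 fold change 1.17). USP27X, USP44 and USP49 of the same class were listed at 0 in all 6 libraries. In all, 4 of the 6 tested genes of this class were higher and 2 lower, near the background of 61.6% and 34.1%.

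Of the 8 genes linked to DNA repair and the p53 pathway, 6 were higher and 2 lower, beside 61.6% higher among all tested genes. USP1, which removes ubiquitin from FANCD2 and PCNA, was listed at 0 in each control library and reached 15.8, 16.6 and 15.8 TPM with MT. USP11, a regulator of repair by homologous recombination, was likewise at 0 in the controls and reached 12.0, 11.8 and 12.0 TPM with MT. The spread among the MT-treated libraries was small for both genes. USP47, which acts on DNA polymerase beta, was at 0 in the controls and reached 9.76, 8.60 and 7.98 TPM with MT. USP7, which stabilizes MDM2 and p53, stood at 7.37, 7.00 and 7.02 TPM without MT and at 17.3, 17.4 and 17.2 TPM with MT, a 2.43-fold ratio of means (adjusted p = 1e-07, limma). USP48 rose 2.53-fold, from 14.9 ± 1.06 to 37.9 ± 0.193 TPM (SD, n = 3 each). USP45, which acts on the repair nuclease subunit ERCC1, stood at 6.27, 5.77 and 6.13 TPM without MT and at 20.4, 19.3 and 20.1 TPM with MT, a 3.29-fold ratio of means with no overlap between groups.

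The DNA repair genes that fell were USP28 and USP10. USP28, which stabilizes MYC and takes part in the p53 response, stood at 2.02, 2.20 and 1.88 TPM without MT and at 0.01, 0.01 and 0.03 TPM with MT. The gene was low in control and close to 0 in each MT-treated library (log2 fold change -1.58 ± 0.04). USP25, its closest relative, showed the reverse pattern, at 0 in each control library and at 2.15, 2.13 and 1.91 TPM after MT, but its direction turned after quantile normalization (log2 fold change -0.30). USP10, a partner of the stress granule protein G3BP1 that deubiquitinates p53, had 28.6, 29.1 and 29.4 TPM without MT and 16.8, 16.0 and 15.7 TPM with MT, a ratio of control to MT-treated means of 1.80 (adjusted p = 7.74e-07, limma).

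In the class of cell cycle and RNA processing genes, USP39 showed a 52.0-fold ratio of means. USP39, a splicing factor that has the USP fold but lacks catalytic residues, stood at 0.75, 0.66 and 0.78 TPM without MT and at 39.04, 36.7 and 38.1 TPM with MT. Its control values all lay under 1 TPM (log2 fold change 4.49 ± 0.04). USP37, which stabilizes cyclin A, differed less, with 12.4, 12.5 and 12.4 TPM without MT and 15.9, 17.4 and 15.2 TPM with MT (log2 fold change 0.35 ± 0.05, adjusted p = 0.000733, limma). After quantile normalization the log2 fold change of USP37 was -0.46, so its direction depended on the scaling. USP26 was listed at 0 in all 6 libraries.

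Among the enzymes of endosomes, receptors and membranes, 4 of 7 tested genes were lower and 2 higher, beside 34.1% lower and 61.6% higher among all tested genes, and the calls on USP8 and USP2 depended on the scaling. USP32, a membrane-anchored enzyme that acts on RAB7, stood at 10.5, 10.1 and 10.3 TPM without MT and at 0.11, 0.18 and 0.19 TPM with MT. The ratio of control to MT-treated means was 64.3 (log2 fold change -3.28 ± 0.04). USP30, which sits in the outer mitochondrial membrane and opposes mitophagy, had 61.6, 63.3 and 57.0 TPM without MT and 29.3, 22.2 and 24.7 TPM with MT, a ratio of 2.39 (adjusted p = 3.34e-05, limma). The gap between the groups was larger than the spread within either for both genes. USP8, which deubiquitinates receptors at the early endosome, stood at 57.0, 59.9 and 59.1 TPM without MT and at 41.2, 43.1 and 41.9 TPM with MT (log2 fold change -0.47 ± 0.03, adjusted p = 7.79e-06, limma). This difference was not kept under median centring, with a log2 fold change of 0.01 and an adjusted p of 0.788 (limma), but it was under median ratio centring (-0.20). USP50, a relative of USP8, was listed at 0 in all 6 libraries.

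USP12 and USP46 are close relatives that share the activating subunits WDR48 and WDR20. USP12 stood at 82.9, 88.1 and 85.0 TPM without MT and at 36.5, 37.3 and 34.4 TPM with MT, a ratio of control to MT-treated means of 2.37 (adjusted p = 2.18e-07, limma). USP46 was listed at 0 in each control library and reached 12.7, 16.9 and 33.3 TPM with MT. Replicate 3 of the MT-treated libraries stood above the other 2, and without it the log2 fold change was 3.97 in place of 4.35. USP2, a regulator of MDM2 and of circadian proteins, stood at 10.3, 11.0 and 9.96 TPM without MT and at 15.5, 14.9 and 15.0 TPM with MT (adjusted p = 3.92e-05, limma) but had a log2 fold change of -0.53 after quantile normalization. USP33, which acts on adrenergic receptors and on the guidance receptor ROBO1, stood at 7.74, 7.10 and 6.83 TPM without MT and at 7.71, 7.50 and 7.12 TPM with MT. The groups overlapped, and the log2 fold change of 0.04 ± 0.05 did not pass (adjusted p = 0.504, limma), whereas it was 0.52 under median centring and -2.03 after quantile normalization, both past the threshold. USP20, its closest relative, was listed at 0 in all 6 libraries.

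The class of WNT, TGF-beta and other signalling held USP34, USP15 and USP43, which fell, and USP4, USP31, USP40, USP9X, USP24 and USP25, which rose. These 6 higher and 3 lower genes of 9 tested stood near the background of 61.6% and 34.1%, and USP9X, USP24 and USP25 turned after quantile normalization. USP34, which stabilizes axin in WNT signalling, stood at 133, 119 and 130.0 TPM without MT and at 51.7, 44.7 and 46.0 TPM with MT, a ratio of control to MT-treated means of 2.69 (adjusted p = 1.96e-06, limma). USP15, which deubiquitinates SMAD proteins and the TGF-beta receptor, had 81.3, 88.8 and 82.3 TPM without MT and 37.0, 36.6 and 32.7 TPM with MT, a ratio of 2.37 (adjusted p = 1.87e-06, limma). Both genes were among the 5 most abundant peptidases of the control libraries. USP4, a close relative of USP15 that also acts on the TGF-beta receptor, stood at 1.10, 1.16 and 0.89 TPM without MT and at 48.3, 46.3 and 48.1 TPM with MT. Its ratio of MT-treated to control means was 45.3 (log2 fold change 4.57 ± 0.06).

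USP31 and USP43 are relatives that moved in opposite directions. USP31 was listed at 0 in each control library and reached 34.5, 35.2 and 35.7 TPM with MT. USP43 stood at 63.3, 69.4 and 66.1 TPM without MT and at 10.3, 12.3 and 12.7 TPM with MT, a ratio of control to MT-treated means of 5.62 (adjusted p = 2.83e-07, limma). USP9X, a large enzyme that acts on SMAD4 and beta-catenin among others, had 3.96, 3.90 and 4.14 TPM without MT and 12.3, 12.8 and 12.0 TPM with MT, and USP24, its relative, was at 0 in each control library and reached 2.75, 3.00 and 2.99 TPM with MT. Both were called higher as deposited, but after quantile normalization their log2 fold changes were -0.62 and -0.13. USP40 rose 5.42-fold, from 3.30 ± 0.0751 to 17.9 ± 1.59 TPM (SD, n = 3 each).

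USP53 and USP54 were long annotated as lacking peptidase activity, and USP53 is a protein of tight junctions. USP54 stood at 88.8, 91.6 and 88.2 TPM without MT and at 0, 0 and 0.02 TPM with MT. It was the third most abundant peptidase of the control group and was at or next to 0 in each MT-treated library. USP53 stood at 5.51, 5.51 and 5.30 TPM without MT and at 14.9, 18.4 and 18.7 TPM with MT, a 3.19-fold ratio of means (log2 fold change 1.51 ± 0.09, adjusted p = 4.97e-06, limma). After quantile normalization the difference in USP53 no longer passed the threshold (log2 fold change 0.41, adjusted p = 0.108, limma). USP6NL, which is not a peptidase, fell from 27.6 ± 0.265 to 13.9 ± 0.354 TPM (SD, n = 3 each; adjusted p = 1.92e-07, limma).

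The other 11 USP genes were not tested. USP13, USP18, USP20, USP26, USP27X, USP44, USP49 and USP50 were listed at 0 in all 6 libraries. USP18 is the peptidase that removes the ubiquitin-like protein ISG15. USP19, an enzyme anchored in the endoplasmic reticulum, stood at 0, 0.03 and 0.03 TPM without MT and at 0.51, 0.40 and 0.41 TPM with MT. USP35 was at 0 in the controls and reached 0.11, 0.16 and 0.18 TPM with MT, and USP38 had 0.62, 0.63 and 0.71 TPM without MT and 0.94, 0.85 and 1.10 TPM with MT. None of these 3 reached 1 TPM in 3 libraries. In a fit without the filter on low values all 3 were called higher after MT (limma). In that fit 8871 of 16288 genes in all were called higher and 4372 lower. The values of the 3 genes were low, so no p is given for them.

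A ratio of related genes within a library compares both genes under the same scaling. The log2 ratio of USP4 to USP15 (TPM + 1) was -5.29, -5.38 and -5.46 without MT and 0.38, 0.33 and 0.54 with MT. USP15 was therefore the more abundant gene in each control library and USP4 in each MT-treated library. The log2 ratio of USP53 to USP54 was -3.79, -3.83 and -3.82 without MT and 3.99, 4.28 and 4.27 with MT, which is also a change of order. USP16 exceeded USP45 in all 6 libraries, but the log2 ratio of the 2 genes went from 2.24 ± 0.05 without MT to 0.31 ± 0.06 with MT (SD, n = 3 each). USP2 stayed below USP21 in all 6 libraries, with a log2 ratio of -4.06 ± 0.05 in control and -3.20 ± 0.03 in MT-treated blastocysts (SD, n = 3 each). The groups did not overlap for these 4 ratios. An exact two-sided permutation test gave p = 0.1 for USP16 to USP45 and for USP2 to USP21, the smallest value that 3 against 3 libraries allow, whereas USP4 and USP54 were tested through 1 group alone, so their ratios are given with no p. With a pseudocount of 0.1 the difference between groups grew from 5.79 to 6.63 for USP4 to USP15 and from 8.0 to 11.4 for USP53 to USP54. Quantile normalization moves genes of a library by different amounts and can change such ratios. Under it the log2 fold changes were -0.53 for USP2 and -0.13 for USP21, so their ratio then fell with MT. For USP16 and USP45 they were -0.24 and 0.77, the same direction of the ratio as deposited.

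**Figure D2:**
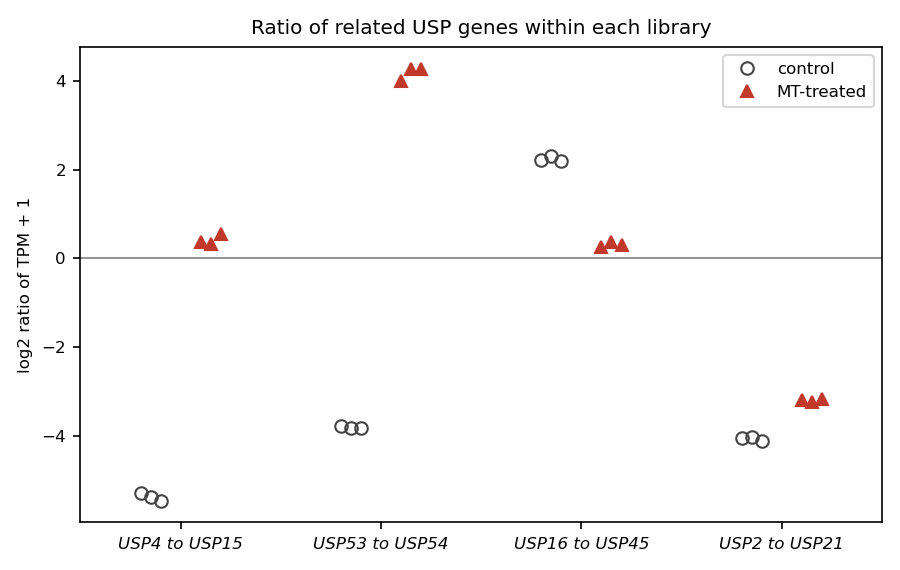
Log2 ratio of the TPM + 1 of 2 related USP genes within each library (vertical axis), with 1 open circle per control library and 1 triangle per MT-treated library. The ratios of USP4 to USP15 and of USP53 to USP54 are below 0 in the 3 control libraries and above 0 in the 3 MT-treated libraries.

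Of 12 pairs of related USP genes with both genes called, 8 moved in opposite directions and 4 in the same direction. The opposite pairs included USP4 with USP15, USP12 with USP46, USP25 with USP28, USP31 with USP43 and USP53 with USP54. Each of these pairs held a gene that passed the filter only through the group in which it was high. In USP25 with USP28 both genes did, so their opposite directions as deposited were fixed in advance. The pairs share genes, and 42.0% of all possible pairs of tested genes had opposite calls. Under median centring 6 of the 12 pairs were opposite, because USP16 and USP21 were then higher, beside 35.8% of all possible pairs. USP16 with USP45 and USP2 with USP21 were the only pairs without a gene that passed the filter only through its high group. Both pairs moved in the same direction under median centring. After quantile normalization 5 of 10 pairs were opposite, beside 41.3%. USP25 with USP28 and USP2 with USP21 were then in the same direction, and USP16 with USP45 was opposite.

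The shares that single members held of the family's sum also differed between the groups. USP21 held 19.9 ± 0.209% of the summed TPM of the peptidases in control and 18.0 ± 0.412% in MT-treated blastocysts (SD, n = 3 each). The 5 most abundant peptidases of each group held 60.5% of the sum in control and 39.5% after MT, and they were USP21, USP34, USP54, USP12 and USP15 in control and USP21, USP4, USP34, USP8 and USP39 after MT. The share of USP34 went from 13.4 ± 0.932% to 5.82 ± 0.425%, and that of USP4 from 0.11 ± 0.014% to 5.84 ± 0.113%. USP54 held 9.39 ± 0.0946% in control and 0.00082% on average after MT. Across the 36 tested peptidases, Pearson's r of log2(TPM + 1) lay between 0.986 and 0.9997 for 2 libraries of the same group and between 0.242 and 0.274 for libraries of different groups. Over the group means r was 0.25 for these 36 genes and 0.55 for all 11953 tested genes, and over genes above 0 in all 6 libraries it was 0.41 for 24 peptidases and 0.70 for 6925 genes. Such values compare genes within a library or group, and genes are no replicates of one another.

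**Figure D3:**
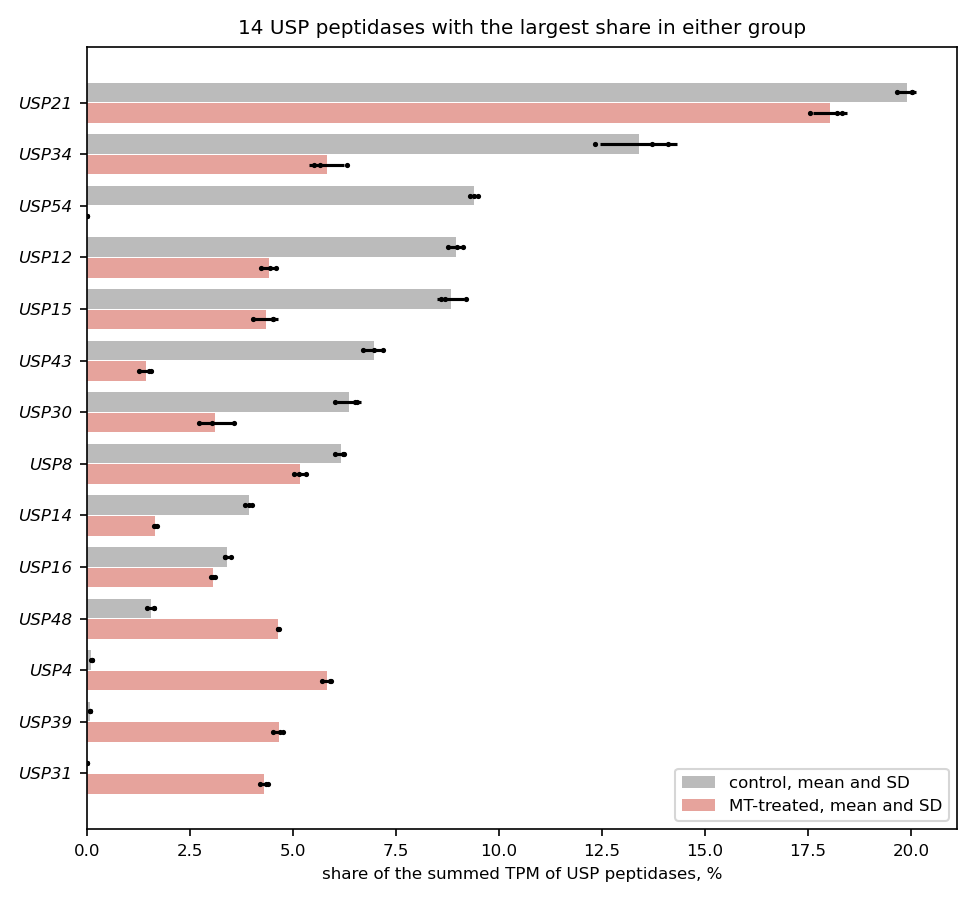
Share of the summed TPM of all USP peptidases (horizontal axis, %) for the 14 peptidases with the largest share in either group, as mean bars with SD and 1 dot per library, grey for control and red for MT-treated. USP21 holds the largest share in both groups, and the bars of USP54 and USP4 are nearly absent in opposite groups.

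The direction of some members depended on how the libraries were scaled. The 5988 genes with at least 1 TPM in all 6 libraries had a library median that fell by 0.48 on the log2 scale with MT, and median centring removed this shift from each gene. The median log2 fold change of the same genes was -0.27, and a centring of each library on its median difference from the gene means (median ratio centring) removed this smaller shift. Under it 23 USP genes were higher and 14 lower, beside 66.5% and 29.1% of all tested genes, and USP16 (-0.09), USP21 (-0.10) and USP8 (-0.20) stayed lower, so their change of direction rests on which centring is used. Under median centring 25 of the 37 USP genes were higher and 11 lower, beside 70.4% and 25.4% of all tested genes. Called higher under the deposited TPM, median centring and quantile normalization alike were 15 genes, namely USP1, USP3, USP4, USP5, USP7, USP11, USP22, USP31, USP39, USP40, USP42, USP45, USP46, USP47 and USP48. Called lower under these 3 scalings were 11 genes, namely USP10, USP12, USP14, USP15, USP28, USP30, USP32, USP34, USP43, USP54 and USP6NL. Of the higher genes, USP1, USP3, USP4, USP5, USP11, USP31, USP39, USP42, USP46 and USP47 needed the MT-treated libraries to pass the filter. Of the lower genes, USP28, USP32 and USP54 needed the control libraries. The filter took in these genes through the group in which they were high, so their calls under the 3 scalings add no support. The share of all tested genes called alike under the 3 scalings was not computed. The log2 fold changes of USP14, USP12 and USP10 were -0.93, -0.74 and -0.33 under median centring and -1.14, -0.95 and -0.54 under median ratio centring. After quantile normalization those of USP7, USP22, USP45 and USP40 were 0.25, 0.50, 0.77 and 0.89, in place of 1.17, 1.38, 1.57 and 2.13. That of USP48 was 1.24 in place of 1.29.

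**Figure D4:**
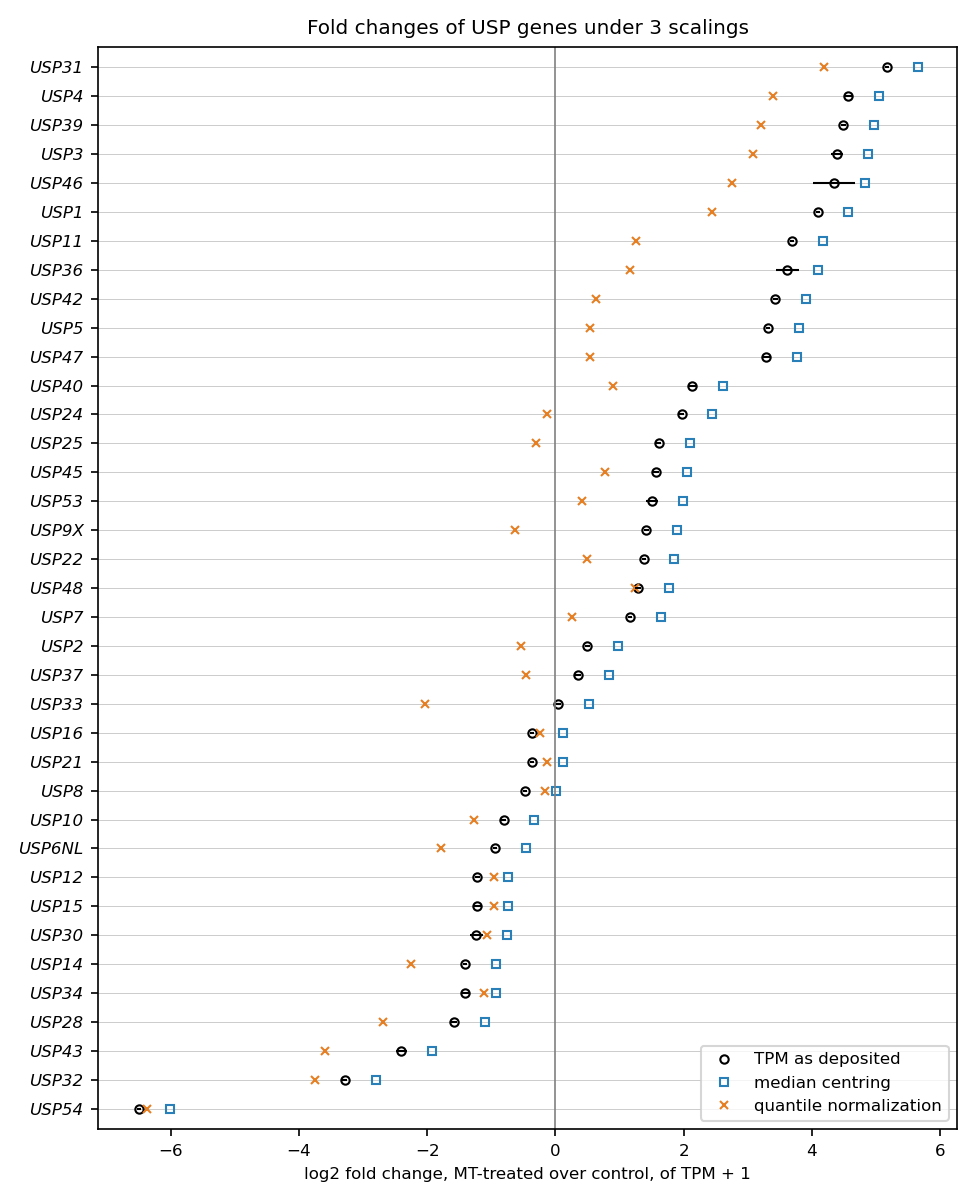
Log2 fold change of TPM + 1 (MT-treated over control, horizontal axis) of the 37 tested USP genes under the deposited TPM (circles, with the standard error as a line), median centring (squares) and quantile normalization (crosses). The squares lie to the right of the circles by the same shift for each gene, and USP33 lies on different sides of 0 depending on the scaling.

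Deubiquitinases outside the USP rule were counted from a list of 37 genes of the other families, of which 36 were in the table. Of 28 tested genes, 15 (53.6%) were higher and 13 (46.4%) lower, beside 61.6% and 34.1% of all tested genes, and their median log2 fold change was 0.32, beside 1.12 for all tested genes. The largest rises were in UCHL1, a ubiquitin C-terminal hydrolase, which reached 24.5, 27.6 and 28.0 TPM with MT, and ZUP1, a K63-chain peptidase, which reached 18.1, 22.5 and 26.2 TPM, both listed at 0 in each control library. STAMBPL1, a metalloprotease of the JAMM family, stood at 0, 0 and 1.40 TPM without MT and at 24.2, 24.0 and 20.9 TPM with MT. The largest falls were in OTUD7A, an OTU family member, with 24.8, 26.7 and 24.7 TPM without MT and 0 in all 3 libraries with MT, in ATXN3, from 30.9 ± 1.55 to 2.60 ± 0.217 TPM, and in MYSM1, a histone H2A deubiquitinase, from 6.51 ± 0.203 to 0.580 ± 0.0458 TPM (SD, n = 3 each). CYLD, which has a USP fold without a USP number and limits NF-kappaB signalling, was at 0 in each control library and reached 6.13, 6.40 and 6.72 TPM with MT. All 7 genes were called, but of these ATXN3 alone had at least 1 TPM in all 6 libraries (adjusted p = 1.82e-08, limma), and the others passed the filter only through the group in which they were high.

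UBB and RPS27A, which encode ubiquitin, fell as deposited. UBB stood at 4414, 4361 and 4420.5 TPM without MT and at 3459, 3347 and 3469 TPM with MT (log2 fold change -0.36 ± 0.02, adjusted p = 9.79e-07, limma). RPS27A, which encodes ubiquitin fused to a ribosomal protein, stood at 2235, 2274 and 2227 TPM without MT and at 2041, 2088 and 2006 TPM with MT (log2 fold change -0.13 ± 0.02, adjusted p = 0.000303, limma). The groups did not overlap for either gene. Under median centring the log2 fold changes were 0.12 and 0.34, and under median ratio centring -0.09 and 0.13, so the direction depended on the scaling.

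Of 26 tested genes for ubiquitin supply, USP partners and proteins on which USP enzymes act, 14 (53.8%) were higher and 12 (46.2%) lower, beside 61.6% and 34.1% of all tested genes, and their median log2 fold change was 0.18, beside 1.12. Under median centring 19 were higher and 7 lower, beside 70.4% and 25.4% of all tested genes, and quantile normalization left 9 higher and 13 lower, beside 46.4% and 44.4%. WDR48, the activating subunit of USP1, USP12 and USP46, stood at 34.0, 35.9 and 35.1 TPM without MT and at 22.8, 22.3 and 22.5 TPM with MT (log2 fold change -0.61 ± 0.03, adjusted p = 1.66e-06, limma), which was -0.14 under median centring. The other 2 genes of that class were at 0 in each control library, and WDR20 reached 12.4, 13.9 and 13.6 TPM and its relative DMWD 1.41, 1.22 and 1.31 TPM with MT, although DMWD had a log2 fold change of -0.51 after quantile normalization. ISG15, the ubiquitin-like substrate of USP18, was listed at 0 in each control library and reached 93.2, 88.9 and 91.5 TPM with MT, while USP18 was at 0 throughout. CCNA2, the cyclin that USP37 stabilizes, and MDM2, a target of USP7, were also at 0 without MT and reached 68.2, 68.4 and 66.3 TPM for CCNA2 and 35.8, 32.9 and 35.2 TPM for MDM2 with it. MDM4, the partner of MDM2, stood at 50.1, 50.4 and 50.2 TPM without MT and at 0.05, 0 and 0 TPM with MT. STAM, which binds USP8 at the endosome, fell from 105 ± 3.56 to 4.99 ± 0.146 TPM, and ATXN7, the subunit that anchors USP22 in SAGA, fell from 174 ± 2.51 to 16.5 ± 1.38 TPM (SD, n = 3 each). Other partners of USP8 and USP22 on the list had higher means with MT. STAM2, a relative of STAM, stood at 21.4, 23.5 and 21.7 TPM without MT and at 28.9, 26.6 and 27.0 TPM with MT, and HGS, which forms a complex with STAM, went from 3.99, 4.19 and 4.37 TPM to 8.66, 9.74 and 9.03 TPM. Of the SAGA subunits, ATXN7L3 stood at 0.06, 0.05 and 0.06 TPM without MT and at 3.20, 2.78 and 2.68 TPM with MT, and ENY2, whose groups overlapped, at 313, 309 and 300.1 TPM without and 326, 327 and 312 TPM with it (adjusted p = 0.0449, limma). The call on ENY2 was lost with no filter (0.0553), with no intensity trend (0.0882), without control replicate 2 or 3 (0.0813 and 0.127) and without MT-treated replicate 1 or 2 (0.132 and 0.133), each an adjusted p from limma. After quantile normalization the log2 fold changes of HGS and ATXN7L3 were -1.49 and -0.80, so their direction depended on the scaling. STAM and ATXN7 had adjusted p-values of 8.98e-10 and 1.25e-08 (limma), whereas ISG15, CCNA2, MDM2, MDM4, WDR20, DMWD and ATXN7L3 passed the filter only through the group in which they were high and had to differ.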

How the data were processed

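Blastocyst RNA was measured in 3 control and 3 MT-treated libraries, grouped by their labels. The authors deposited TPM per gene with 2 decimals. Their methods name fastp 0.20.1, FastQC 0.11.9, STAR 2.7.9a, featureCounts of Subread 1.6.3, DESeq2 and the build ARS-UCD1.3, whereas the processing notes list ARS-UCD1.2, and the step from counts to TPM and the strand setting are not given in the sources used here. The methods name Smart-seq2 and the labels a TruSeq kit. TPM holds no counts, so the depth behind each value cannot be read from the deposited table, and no counting interval is given. The replicates of a group are described as independent production runs.

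TPM were transformed to log2(TPM + 1), and genes with at least 1 TPM in at least 3 libraries were fitted with limma 3.58.1 (lmFit, eBayes with trend) in R 4.3.3, with Benjamini-Hochberg adjustment over 11953 genes and a threshold of 0.05. The fit was tested on simulated data first. These held a small set of changed genes and none at 0 throughout a group, unlike the deposited data. That run therefore says little about the calls here. Tables and figures used Python 3.11.15, pandas 2.3.3, scipy 1.17.1 and matplotlib 3.10.9. The members and lists were chosen with earlier results of these data known. USP genes were named with each library's value for the 8 highest and 8 lowest fold changes among called genes whose groups do not overlap, the 5 highest means, both genes of tested paralog pairs, and genes that did not pass. Others are given by mean, ratio or range, and a few were given in full beyond the rule. From the other lists, the 3 highest and 3 lowest called genes, UBB, RPS27A, WDR48 and CYLD were named, the other partners of WDR48-dependent enzymes, USP8 and USP22 were added after their values were seen, and some genes of these lists are not reported here. The alternatives tried were no filter, a 5 TPM minimum, a 0.1 pseudocount, equal totals, median centring, median ratio centring, quantile normalization, no trend, genes with a symbol, a replicate block and each library left out. Lists were written from general knowledge. Replicate numbers were not treated as pairs. No sequence is shown.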

Additional observations from a re-analysis of the deposited data

How the results depend on the processing

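TPM without counts and 3 libraries per group limit the precision, and low or absent values cannot be told from missed transcripts. The 36 calls on USP genes kept their side of the threshold and their direction with a pseudocount of 0.1, equal totals, no trend, genes with a symbol, and each library left out, as they did with no filter and, for the 33 calls left, a minimum of 5 TPM. For genes that passed the filter only through the group in which they were high, kept calls add no support. Over all tested genes, 7361 were higher with a pseudocount of 0.1, 7449 with equal totals and 7347 with no trend, in place of 7367. The counts were thus about as stable over the whole table. Median centring reversed USP16 (0.12), USP21 (0.11) and USP8 (0.0087) and called USP33 (0.52). Median ratio centring, also chosen after seeing the data, reversed none of the USP genes and called USP33 (0.31). Quantile normalization reversed USP2 (-0.53), USP24 (-0.13), USP25 (-0.30), USP33 (-2.03), USP37 (-0.46) and USP9X (-0.62), and USP36 (1.17) and USP53 (0.41) no longer passed. The log2 ratio of summed TPM was -0.19 with equal totals, 0.27 with median centring, 0.054 with median ratio centring and -0.32 with quantile normalization, and lay between -0.23 and -0.22 with a library left out. Supply and partner genes counted 9 higher and 13 lower with quantile normalization and 19 higher and 7 lower with median centring. Another alternative chosen after seeing the data kept only genes above 0 in all 6 libraries. In it 2814 of 6925 genes in all, 11 of 25 USP genes and 9 of 20 supply and partner genes were higher. Genes at 0 in any library are left out of this set by its definition. The cause of these changes was not tested.

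The replicate block gave 22 higher and 14 lower USP genes, as without it, and 7379 higher and 4082 lower genes in all in place of 7367 and 4071. Deviations of same-numbered libraries correlated at -0.02, -0.004 and 0.08 across 7468 genes, so the numbers showed no shared pattern. The paper states that the oocytes of each run were pooled and divided at random among treatments. Control and MT-treated libraries may thus share a run, but which libraries do so is not given. These correlations cannot show that the runs were unpaired.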

Other observations

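Among the other ubiquitin genes of the lists, the values of a few that no comparison above described stood far apart between groups. OTUB1, an OTU deubiquitinase that also blocks E2 enzymes, had 45.5, 42.9 and 46.9 TPM without MT and 305, 296 and 299.5 TPM with MT, a 6.66-fold ratio of MT-treated to control means. BRCC3, a K63-chain metalloprotease of the BRCA1-A complex, had 1.83, 2.37 and 2.68 TPM without MT and 26.5, 23.4 and 24.7 TPM with MT, and OTUD6B fell from 195 ± 5.13 to 42.4 ± 2.65 TPM (SD, n = 3 each). PSMD14, the deubiquitinase of the proteasome lid, fell from 252 ± 6.12 to 109 ± 2.32 TPM (SD, n = 3 each), as did USP14. These 4 genes were chosen after their values were seen, and their direction was the same under median centring and quantile normalization. USPL1, a SUMO peptidase with a USP fold and no number in its name, was listed at 0 in each control library and reached 0.79, 0.84 and 0.91 TPM with MT.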
